A study of Homo sapiens with 6 samples.

Results

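The 33 genes described here act in the G2 phase of the cell cycle and in mitosis, and they were followed in LX-2, an established immortalised human hepatic stellate cell line. They were found by symbol, and all 33 had a row among the 27830 genes of the deposited table. The study compared 3 control samples that received no treatment with 3 samples given 10 ng/ml of transforming growth factor beta 1 (TGF-β1) for 24 h. According to the labels, TGF-β1 was given in medium without serum, and the controls' medium over those hours is not described. Serum is itself a strong signal for division, so TGF-β1 and a possible difference in serum cannot be told apart in any value below. It is also not stated whether the 3 samples of a group are separate cultures, and the spread behind each p-value could therefore be technical only. A single line stands for the stellate cell here, and it descends from cells given SV40 large T antigen, which binds the RB and p53 proteins that restrain division.

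Cells enter mitosis when the kinase CDK1, bound to cyclin A2 or a B-type cyclin, is switched on by phosphatases of the CDC25 family. Polo-like and Aurora kinases then build the spindle, kinetochores couple chromosomes to microtubules, and the spindle checkpoint holds back the anaphase-promoting complex until each chromosome is attached. CDC20 and the ubiquitin-conjugating enzyme UBE2C next drive destruction of securin and cyclin B, and the cell divides. Most of these genes are regulated by the DREAM and MuvB complexes, MYBL2 and FOXM1, and are transcribed mainly in G2. Their messenger RNA is therefore widely used as a gauge of dividing cells. In the liver, quiescent stellate cells rarely divide, and proliferation is one feature of their activation. In whole-culture RNA, a change in the number of cells in G2 and mitosis and a change in RNA per cell cannot be told apart.

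The promoters of these genes share textbook elements. The elements were picked because they are known from promoters of G2 and mitosis genes. The shares below therefore describe the list and are not independent support for it. RefSeq promoter sequences on GRCh38.p14 were matched for 27 of the 33 genes, and AURKA, BIRC5, FOXM1, TPX2, TTK and UBE2C were not matched. CCAAT, the box bound by NF-Y, was found on either strand within the 300-base window of 19 of the 27 promoters (70.4%), against 35.7% of all 27305 promoters. TTTGAA, the core of the cell cycle homology region through which MuvB binds, was in 16 (59.3%) against 15.4%, and its variant TTTAAA, which reads the same on both strands, in 12 (44.4%) against 12.3%. The E2F-type strings TTCCCGC and TTGGCGC were in 3 (11.1% against 6.56%) and 2 (7.41% against 3.12%). In a 200-base window from 150 bases before to 50 after the start, they were in 1 each (3.7%), against 4.64% and 2.25% of all promoters, so TTCCCGC was then below the share of all promoters. In that window CCAAT had a share of 63% against 27.5%, TTTGAA one of 51.9% against 9.57%, and TTTAAA one of 37% against 7.35%. A match describes the letters and is not evidence of binding. A CCAAT box and TTGGCGC can share letters. The upstream 250 bases of 4 members are printed 5′ to 3′ with these motifs in capitals. CCNB2 and PLK1 are shown as members with small differences between the groups (log2 0.06 and -0.18). TOP2A and CENPF are shown as members among the largest differences (0.96 and 1.18). On GRCh38.p14 they lie at chr15:59104896-59105145 (CCNB2, plus strand), chr16:23678639-23678888 (PLK1, plus), chr17:40417897-40418146 (TOP2A, minus) and chr1:214602945-214603194 (CENPF, plus).
CCNB2: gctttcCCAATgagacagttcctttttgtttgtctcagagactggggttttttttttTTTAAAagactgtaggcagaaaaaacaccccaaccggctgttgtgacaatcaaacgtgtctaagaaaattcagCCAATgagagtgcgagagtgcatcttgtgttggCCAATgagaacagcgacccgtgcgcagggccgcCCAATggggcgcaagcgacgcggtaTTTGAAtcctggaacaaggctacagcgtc
PLK1: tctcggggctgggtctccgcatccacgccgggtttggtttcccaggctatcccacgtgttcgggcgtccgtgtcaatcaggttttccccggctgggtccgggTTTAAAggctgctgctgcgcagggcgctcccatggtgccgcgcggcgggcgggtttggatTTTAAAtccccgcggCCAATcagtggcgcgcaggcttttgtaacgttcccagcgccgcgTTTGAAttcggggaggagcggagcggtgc
TOP2A: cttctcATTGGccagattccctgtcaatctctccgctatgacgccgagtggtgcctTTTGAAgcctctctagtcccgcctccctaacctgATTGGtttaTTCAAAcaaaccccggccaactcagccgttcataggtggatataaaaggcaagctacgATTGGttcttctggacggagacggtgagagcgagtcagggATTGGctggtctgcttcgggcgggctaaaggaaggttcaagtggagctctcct
CENPF: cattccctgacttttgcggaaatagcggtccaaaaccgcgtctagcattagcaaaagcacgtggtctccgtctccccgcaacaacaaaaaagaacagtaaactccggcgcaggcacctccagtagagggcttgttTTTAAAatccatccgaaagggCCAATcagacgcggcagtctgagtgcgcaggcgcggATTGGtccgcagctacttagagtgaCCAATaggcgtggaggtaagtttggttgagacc
In CCNB2, CCAAT stood 244, 120, 87 and 54 bases before the start site, TTTAAA 193 and TTTGAA 29 bases before it. PLK1 had CCAAT at 73, TTTAAA at 148 and 88, and TTTGAA at 29 bases before the start. TOP2A had the reverse form ATTGG at 244, 160, 93 and 53 bases, TTTGAA at 194 and its reverse TTCAAA at 151. CENPF had CCAAT or ATTGG at 94, 58 and 33 bases and TTTAAA at 115. These 4 promoters were picked, and each carried CCAAT boxes close to the start. CENPE and PLK4, with log2 differences of 1.22 and 0.85, had no CCAAT in the same 250 bases. KIF2C, NDC80, MYBL2, BUB1B, CDC25B and CDC25C had none there either. Whether these elements go with the differences between the groups was not tested.

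Library totals ran from 13866957 to 17694675 counts, and 3 counts, taken as the detection floor for counting error only, corresponded to 0.17 to 0.216 CPM (counts scaled to a common library size). Summed stellate markers were 4758 to 4993 CPM in the controls and 5045 to 5905 with TGF-β1, carried by COL1A1, VIM, LOXL2, SPARC and TIMP1. Other genes of the stellate list were read little. DES had 1 to 5 counts per library, LRAT at most 2, PDGFRA 6 to 12, COL1A2 29 to 48 and ACTA2 65 to 92. ACTA2 had a mean of 4.957 CPM in the controls and 4.775 CPM with TGF-β1 (edgeR adjusted p = 0.898). Markers of other cell types summed to 50.3 to 54.0 and 57.3 to 72.5 CPM (hepatocyte, 4 genes measured), 316.5 to 359 and 271 to 315 (endothelial, 6), 28.8 to 36.0 and 25.5 to 28.7 (leukocyte, 4), and 544 to 664 and 421 to 594 (epithelial, 5). EPCAM, APOA1 and APOB had at most 1 count in a library, CDH5 at most 4 and PTPRC at most 16. Other genes of these lists were read more often. Of the hepatocyte list, CPS1 had 339 to 735 counts per library and SERPINA1 371 to 540. Of the leukocyte list, CD14 had 150 to 301, ITGAX 148 to 231 and CSF1R 63 to 116. The endothelial sum was carried by TIE1 and the epithelial sum by KRT8 and KRT18. COL3A1 and TAGLN of the stellate list passed the test and no marker of another list did, and the part of any of these cell types in the results below was not tested.

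No mitosis gene passed the test for a difference between the groups. Of the 33 genes, 32 had enough counts to be tested, and 0 were called by edgeR's quasi-likelihood test at a Benjamini-Hochberg adjusted p under 0.05, against 0.366% of all 14463 genes tested. DESeq2 called 4 of the 32 (CENPE, CENPF, PLK4 and TOP2A, each higher), against 4.61% of all genes with an adjusted p in that fit. Limma voom called 0, against 0.38% of all genes. The smallest adjusted p in the edgeR fit was 0.0915 (CENPF). At an unadjusted p under 0.05, 7 of the 32 were higher with TGF-β1 (CENPF, CENPE, TOP2A, PLK4, MKI67, KIF11 and CDK1) and 0 were lower, against 11.1% and 4.49% of all genes. The median log2 difference over the 32 was 0.08, from -0.22 (KIF2C) to 1.22 (CENPE), beside a median of 0.01 over all genes tested, and 20 of the 32 differences were above 0, against 51% of all genes. Groups did not overlap for CENPE, CENPF and KIF11, which were higher with TGF-β1 (7.93% of all genes), and for CENPA, which was lower (9.12%). Counts of the tested members ran from 74 to 10203 per library, with CENPE at the low end and CCNB1 at the high end.

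The call count depended on single libraries. Without TGF-β1 replicate 3, 7 members were called (CENPE, CENPF, KIF11, MKI67, PLK4, TOP2A and CDK1, each higher), against 11.2% of all genes in that fit. Without TGF-β1 replicate 1, CENPE, CENPF and TOP2A were called (2.2% of all genes), and without control replicate 2 CENPE alone (0.25%). Leaving out control replicate 1, control replicate 3 or TGF-β1 replicate 2 gave 0 calls (0.0875%, 0.101% and 0.0271% of all genes). The 3 TGF-β1 libraries were not alike for these genes: TGF-β1 replicate 1 was the highest of the 6 libraries for 15 of the 32 members and the lowest for 10. The same counts were not made over all genes, and this library also stood apart there. Its median log2 deviation from each gene's mean was 0.57 over all tested genes with transcript GC content below 42%. Over all tested genes at 50% and above it was -0.18.

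**Figure D1:**
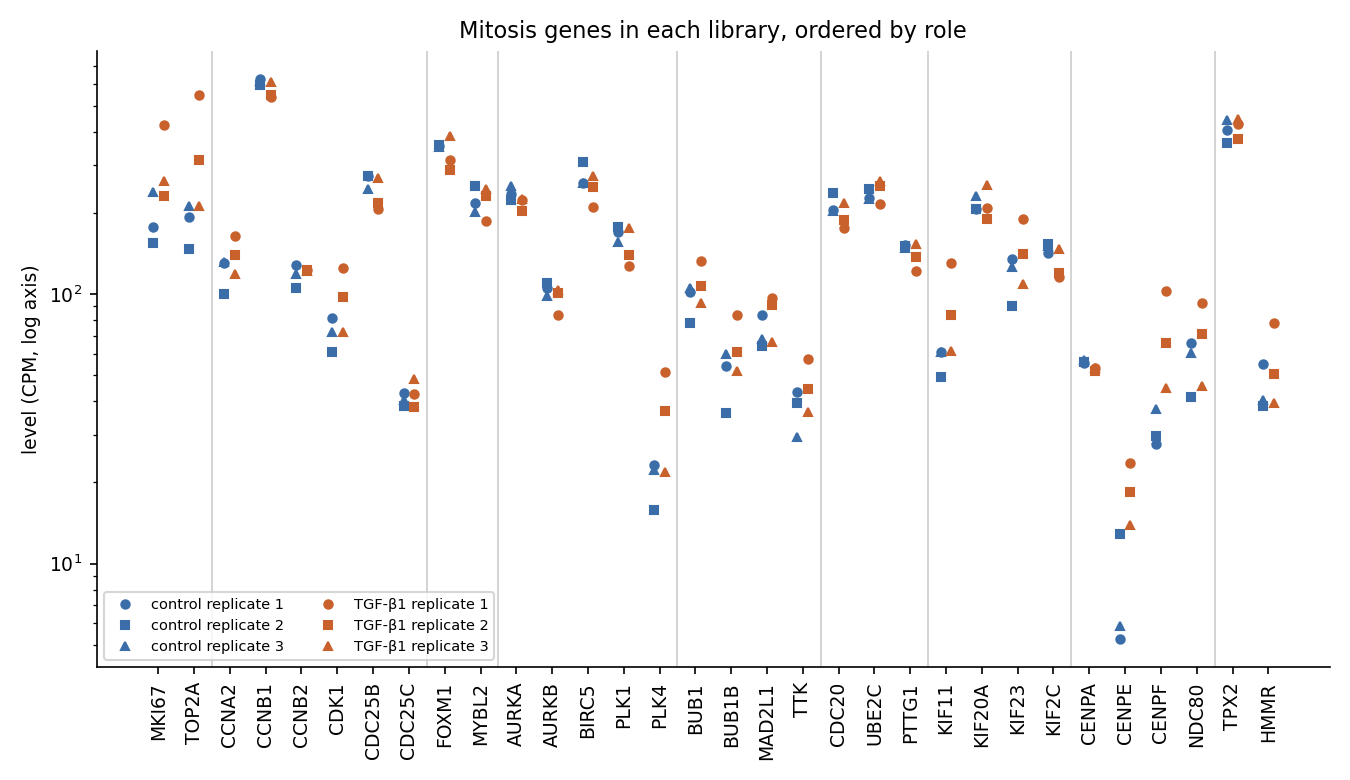
Level of each tested mitosis gene in the 6 libraries, in CPM on a log axis, grouped by role between the grey lines; blue marks are controls and orange marks TGF-β1 samples, with 1 marker shape per replicate number. TGF-β1 replicate 1 stands highest for genes such as TOP2A, PLK4, KIF11 and CENPF, while CCNB1, CDC20 and PLK1 lie within a narrow range.

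The summed level of the 33 genes was 5046, 4815 and 5067 CPM in the controls and 5675, 5010 and 5241 CPM with TGF-β1. The groups overlapped on this scale, since TGF-β1 replicate 2 lay below 2 controls. Means were 4976 ± 140 and 5309 ± 338 CPM (SD, n = 3 per group), a difference of 332 CPM against a spread of 258 CPM within groups. Without TGF-β1 replicate 1 the difference was 149 CPM. As a share of all counts, the members took 0.467% to 0.509% in the controls and 0.513% to 0.574% with TGF-β1. The groups did not overlap on that measure, so the overlap depended on the scaling. No p is given for this sum, because the list was chosen with earlier results of these data known.

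MKI67 and TOP2A, the common markers of cycling cells, were among the members with the largest differences. MKI67 encodes the Ki-67 protein that coats mitotic chromosomes, and its levels were 177, 155 and 240.1 CPM in the controls and 424, 231 and 263 CPM with TGF-β1. TGF-β1 replicate 2 lay below the highest control, so the groups overlapped. Its log2 difference was 0.68 ± 0.23 (SE; edgeR adjusted p = 0.198). TOP2A, the topoisomerase that disentangles sister chromatids, had 193, 146 and 212 CPM in the controls and 550.0, 313 and 212 CPM with TGF-β1. TGF-β1 replicate 3 was level with the highest control while TGF-β1 replicate 1 was far above it. The log2 difference was 0.96 ± 0.28 (SE), which is 1.95-fold (edgeR adjusted p = 0.162).

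The genes that switch mitosis on had small differences between the groups, apart from CDK1. CCNB1, which encodes cyclin B1, was the most abundant member at 629, 595 and 618 CPM in the controls and 540.1, 546 and 610.2 CPM with TGF-β1, a log2 difference of -0.12 whose 95% interval ran from -0.37 to 0.13 (edgeR adjusted p = 0.653). Its partner gene CCNB2 had 128, 105 and 118 CPM and then 123, 122 and 121 CPM, a log2 difference of 0.06 with an interval of -0.21 to 0.33 (edgeR adjusted p = 0.838). The 3 TGF-β1 libraries were nearly identical for CCNB2 and sat inside the control range. CCNA2, cyclin A2, had a mean of 120.5 ± 17.9 CPM in the controls and 141 ± 22.8 CPM with TGF-β1 (SD, n = 3 per group, as for each mean below), and its edgeR adjusted p was 0.522. CDK1 itself had 81.2, 60.9 and 72.0 CPM in the controls and 125, 97.4 and 72.2 CPM with TGF-β1. TGF-β1 replicates 1 and 2 stood above the controls and replicate 3 within them, with a log2 difference of 0.46 ± 0.19 (SE; edgeR adjusted p = 0.278). Of the phosphatases that activate CDK1, CDC25B had 264 ± 17.0 and 232 ± 34.2 CPM (log2 difference -0.19, edgeR adjusted p = 0.535) and CDC25C 40.6 ± 2.39 and 43.0 ± 5.06 CPM (0.09, edgeR adjusted p = 0.812).

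The 2 transcription factors of the list did not differ beyond their spread. FOXM1, a forkhead activator of G2 genes, had 355, 358 and 352 CPM in the controls and 316, 289 and 384 CPM with TGF-β1 (edgeR adjusted p = 0.732). The controls were tight and the TGF-β1 libraries lay on both sides of them. MYBL2, the MuvB partner, had 224 ± 25.7 and 221 ± 30.8 CPM, a log2 difference of -0.02 whose 95% interval ran from -0.33 to 0.29 (edgeR adjusted p = 0.971). FOXM1 shares 15.9% of its exonic sequence with ITFG2 on the opposite strand, so part of its count is uncertain without strand.

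Among the Aurora and Polo kinases, PLK4 stood apart from the rest. PLK4 starts centriole duplication, and its levels were 23.1, 15.7 and 22.3 CPM in the controls and 51.3, 36.7 and 21.8 CPM with TGF-β1. As with TOP2A, TGF-β1 replicates 1 and 2 were high and replicate 3 was inside the control range. The log2 difference was 0.85 ± 0.28 (SE), or 1.8-fold (edgeR adjusted p = 0.191). PLK1, which acts at centrosomes, kinetochores and cytokinesis, had 170, 178 and 156 CPM and then 127, 140.1 and 176 CPM, with TGF-β1 replicates 1 and 2 below the controls (log2 difference -0.18, edgeR adjusted p = 0.565). For PLK1, 12.5% of exon bases overlap other genes on the opposite strand. AURKA, the spindle pole Aurora kinase, had 237 ± 14.3 and 217 ± 12.4 CPM. AURKB, the kinase of the chromosomal passenger complex, had 104 ± 6.09 and 96.2 ± 11.0 CPM, and BIRC5, the survivin subunit of that complex, 275 ± 30.6 and 245 ± 32.0 CPM. Log2 differences of these 3 were -0.13, -0.12 and -0.17 (edgeR adjusted p = 0.628, 0.702 and 0.588).

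None of the 4 spindle checkpoint genes was called. All 4 differences were above 0 as tested, against 51% of all genes, and 2 of the 4 were above 0 with the trend on transcript GC content removed (described below), against 49.9%. BUB1, a checkpoint kinase at kinetochores, had 94.9 ± 14.8 and 111 ± 20.1 CPM (log2 difference 0.22, edgeR adjusted p = 0.542). BUB1B, which encodes BubR1 of the mitotic checkpoint complex, had 54.0, 36.3 and 60.2 CPM in the controls and 83.8, 61.2 and 52.0 CPM with TGF-β1. The lowest TGF-β1 library of BUB1B was below 2 of the controls (log2 difference 0.39, edgeR adjusted p = 0.414). BUB1B shares 10.2% of its exonic sequence with the read-through gene BUB1B-PAK6. MAD2L1, the CDC20 inhibitor MAD2, had 72.1 ± 10.1 and 84.6 ± 16.1 CPM (log2 difference 0.23, edgeR adjusted p = 0.535). TTK, the MPS1 kinase that starts the checkpoint, had 37.4 ± 7.12 and 46.0 ± 10.6 CPM (log2 difference 0.30, edgeR adjusted p = 0.495).

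Genes of the exit from mitosis had small differences, each with an interval that held 0. CDC20, the activator of the anaphase-promoting complex, had 204, 238 and 204 CPM in the controls and 176, 188 and 218 CPM with TGF-β1 (log2 difference -0.15, 95% interval -0.44 to 0.14, edgeR adjusted p = 0.616). UBE2C, its ubiquitin-conjugating enzyme, had 233 ± 11.1 and 244 ± 25.3 CPM (log2 difference 0.07, edgeR adjusted p = 0.831). PTTG1, securin, had 152, 150.2 and 148 CPM and then 122, 138 and 154 CPM (log2 difference -0.12, edgeR adjusted p = 0.672). For each of the 3 genes TGF-β1 replicate 1 was the lowest of the 6 libraries.

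The 4 kinesins did not share a direction. KIF11, the plus-end motor that separates the spindle poles, had 61.0, 49.4 and 61.2 CPM in the controls and 130.2, 83.4 and 61.4 CPM with TGF-β1. The groups did not overlap, but TGF-β1 replicate 3 exceeded the highest control only in the third digit. Its log2 difference was 0.68 ± 0.23 (SE; edgeR adjusted p = 0.204). KIF23, a motor of the central spindle, had 135, 89.99 and 126 CPM and then 190, 140.5 and 109 CPM (log2 difference 0.32, edgeR adjusted p = 0.483). KIF20A, which acts in cytokinesis, had 215 ± 13.8 and 217 ± 32.6 CPM (log2 difference 0.01, edgeR adjusted p = 0.976). KIF2C, a microtubule depolymerase at centromeres, had 142, 154 and 151 CPM in the controls and 116, 119 and 148 CPM with TGF-β1. This was the most negative difference of the list (log2 -0.22, 95% interval -0.51 to 0.06, edgeR adjusted p = 0.444).

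Kinetochore and centromere genes held the 2 largest differences. CENPF, a large coiled-coil protein of the outer kinetochore, had 27.7, 29.6 and 37.3 CPM in the controls and 103, 66.0 and 44.9 CPM with TGF-β1. Each TGF-β1 library was above each control, and the TGF-β1 libraries differed more than 2-fold among themselves. The log2 difference was 1.18 ± 0.26 (SE), or 2.26-fold (edgeR adjusted p = 0.0915). CENPE, the kinetochore motor that carries chromosomes to the spindle equator, had 5.23, 12.9 and 5.85 CPM and then 23.6, 18.4 and 13.9 CPM, from 74, 221 and 96 counts and 388, 310 and 189 counts. Control replicate 2 stood well above the other controls and just below the lowest TGF-β1 library. The log2 difference was 1.22 ± 0.33 (SE), or 2.32-fold (edgeR adjusted p = 0.142). NDC80, the microtubule-binding subunit of the outer kinetochore, had 65.8, 41.6 and 60.5 CPM and then 92.6, 70.9 and 45.6 CPM (log2 difference 0.32, edgeR adjusted p = 0.563). CENPA, the centromeric histone H3 variant, had 55.3, 55.8 and 57.0 CPM in the controls and 53.2, 51.7 and 53.2 CPM with TGF-β1. All 3 CENPA values were lower with TGF-β1, by a log2 difference of -0.09 whose 95% interval was -0.37 to 0.19 (edgeR adjusted p = 0.768).

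Of the spindle microtubule proteins, TPX2, the activator of Aurora A on spindles, had 403 ± 39.1 and 417 ± 34.9 CPM (log2 difference 0.05, edgeR adjusted p = 0.883). HMMR, a spindle-associated hyaluronan receptor, had 54.8, 38.3 and 40.6 CPM and then 77.9, 50.4 and 39.6 CPM (log2 difference 0.33, edgeR adjusted p = 0.535). NUSAP1, which bundles spindle microtubules, was read 5, 3 and 14 times in the control libraries and 5, 5 and 2 times in the TGF-β1 libraries, too few to be tested. In GENCODE release 29, 62.2% of NUSAP1 exon bases overlap the gene AC087721.2 on the same strand; the part of this overlap in the low counts was not tested. NUSAP1 lies on chromosome 15 from 41332694 to 41381050 of GRCh38.

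**Figure D2:**
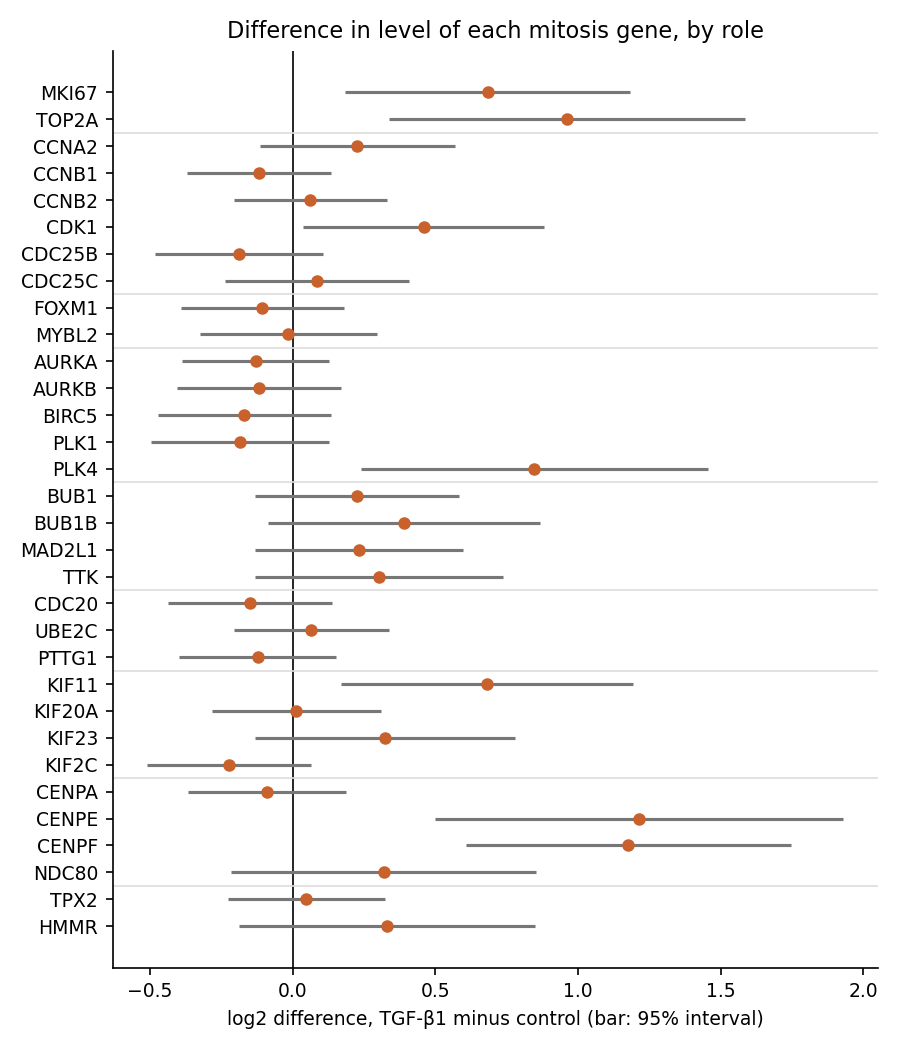
Log2 difference in level (TGF-β1 minus control) of each tested mitosis gene from edgeR, with its 95% interval, grouped by role. The intervals of 7 genes exclude 0 before adjustment, from CDK1 at 0.46 to CENPE at 1.22, and the other 25 include it.

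Levels can be compared between genes only per length, on the deposited FPKM scale (fragments scaled to transcript length and library size). CCNB1 had the highest mean level over the 6 libraries at 242 FPKM (225 to 259), followed by UBE2C at 185 (169 to 202), TPX2 at 114 (97.5 to 123) and CDC20 at 101 (88.2 to 115). The ranges of CCNB1 and UBE2C did not overlap, nor did those of UBE2C and TPX2, while those of TPX2 and CDC20 did. CDK1 had 21.6 FPKM (15.02 to 32.1), less than either B-type cyclin, since CCNB2 had 43.4 FPKM (37.0 to 46.5). At the low end were PLK4 at 6.39 FPKM (3.41 to 11.6), CENPF at 4.42 (2.38 to 8.91) and CENPE at 1.34 (0.528 to 2.4), the last 2 being among the longest transcripts. The members with the largest differences between the groups were thus in the lower part of this order, except TOP2A at 42.7 FPKM (22.3 to 87.3).

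The differences followed the base composition of the transcripts. GC content of the longest transcript ran from 35.3% (CENPE) to 60.5% (MYBL2) among the 32 members, and its Spearman correlation with the log2 difference was -0.81 (Pearson -0.71) across these genes, which share the same 6 libraries. Over the 14375 tested genes with a known transcript the same correlation was -0.53 (Pearson -0.48). The 7 members below 40% (TOP2A, CDK1, PLK4, MAD2L1, KIF11, CENPE and HMMR) were all higher with TGF-β1, with a median log2 difference of 0.68. All tested genes of that GC band had a median of 0.45, and 89.9% of them were above 0. From 40% to 45% the 9 members had a median of 0.30 beside 0.19, and from 45% to 50% the 7 members had 0.01 beside -0.01. At 50% and above the 9 members (CDC25B, FOXM1, MYBL2, AURKB, BIRC5, PLK1, CDC20, UBE2C and KIF2C) had a median of -0.15 beside -0.10, with UBE2C alone above 0. Transcript length moved with the differences as well, at a Spearman correlation of 0.54 over the members and 0.24 over all genes.

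**Figure D3:**
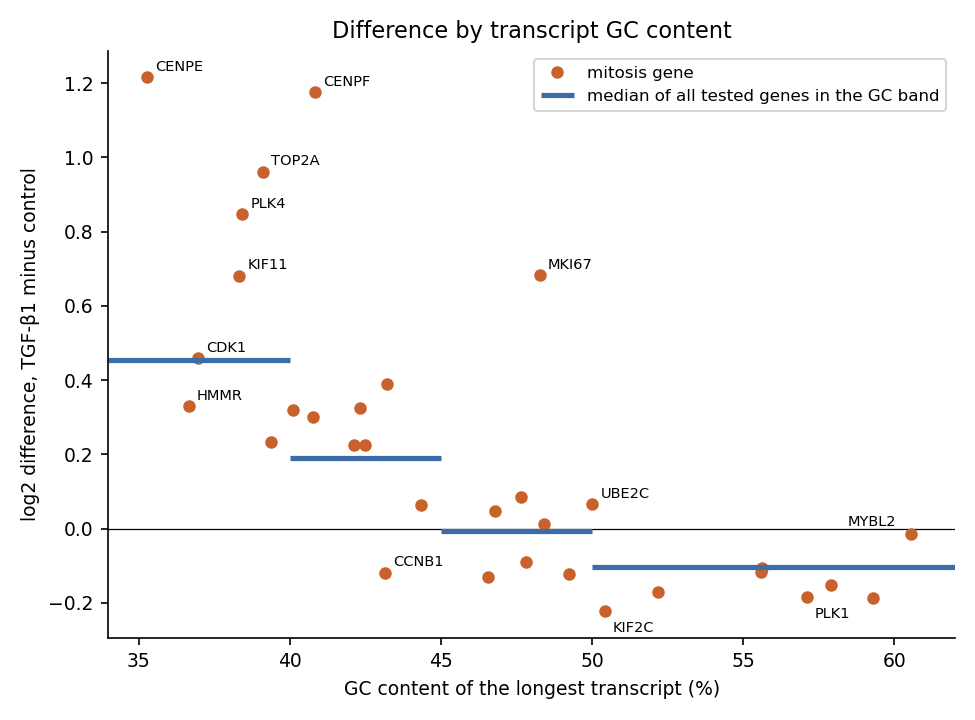
Log2 difference in level (TGF-β1 minus control) of the 32 tested mitosis genes against the GC content of their longest transcript; blue lines are medians of all tested genes in 4 GC bands. Members below 40% GC lie above 0 and those at 50% and above lie near or below it, as the blue medians do, and MKI67 at 48.3% GC lies apart from its band.

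The same split was seen library by library. Over the 10 members below 42% GC, the median log2 deviation from each gene's mean in replicates 1 to 3 was -0.10, -0.47 and -0.22 for the controls, and 0.78, 0.24 and -0.21 for TGF-β1. Over all tested genes below 42% GC it was -0.06, -0.40 and -0.05, and 0.57, 0.17 and -0.17. For the 9 members at 50% and above it was 0.05, 0.16 and -0.0052, and -0.25, -0.11 and 0.14. TGF-β1 replicate 3 lay with the controls in both sets, and TGF-β1 replicate 1 was at opposite ends of them. The middle 90 coding bases of a pair of Polo-like kinases and a pair of kinesins from GENCODE release 29 are printed with G and C in capitals. These pairs were picked after their values were seen, as an illustration in which the member with fewer capitals has the positive log2 difference.
PLK4: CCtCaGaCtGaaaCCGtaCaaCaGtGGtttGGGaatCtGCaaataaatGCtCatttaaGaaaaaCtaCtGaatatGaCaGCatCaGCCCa
PLK1: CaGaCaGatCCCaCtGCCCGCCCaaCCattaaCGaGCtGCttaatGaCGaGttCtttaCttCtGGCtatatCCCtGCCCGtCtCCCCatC
KIF11: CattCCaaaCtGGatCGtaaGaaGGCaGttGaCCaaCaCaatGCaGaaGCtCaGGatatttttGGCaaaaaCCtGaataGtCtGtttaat
KIF2C: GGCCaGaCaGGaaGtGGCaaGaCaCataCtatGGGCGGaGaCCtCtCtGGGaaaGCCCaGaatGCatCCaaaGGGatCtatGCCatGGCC
These windows hold 36, 48, 35 and 50 G or C bases of 90, and the whole coding sequences are 39.1%, 57.4%, 38.2% and 50.3% GC. On GRCh38, PLK4 lies on chromosome 4 from 127880861 to 127899195, PLK1 on chromosome 16 from 23677656 to 23690367, KIF11 on chromosome 10 from 92593286 to 92655395, and KIF2C on chromosome 1 from 44739818 to 44767767. The log2 differences of the Polo-like pair were 0.85 and -0.18, and those of the kinesin pair 0.68 and -0.22. Not all relatives or windows followed this. CCNB1 and CCNB2 had 37 and 39 G or C bases in their windows and log2 differences of -0.12 and 0.06, and the windows of CENPF and MKI67, with differences of 1.18 and 0.68, held 49 each.

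With each library's smooth trend on GC content removed, most differences shrank and 1 of 32 members was called, against 3.12% of all genes in that fit. Whether removing this trend, which differed between the libraries, also removed part of a TGF-β1 effect was not tested. The member called was CENPF, with a log2 difference of 0.85 ± 0.15 (SE; edgeR adjusted p = 0.0131). Over all 25 alternatives its adjusted p ran from 9.54e-09 to 0.366, and it was called in 13. CENPF lies on chromosome 1 from 214603195 to 214664588, and no exon base of it overlaps another gene. The difference of MKI67 stayed at 0.71 (edgeR adjusted p = 0.071; 0.000287 to 0.446 over the alternatives), while that of TOP2A went to 0.54 (0.0565; 4.24e-06 to 0.372) and that of CENPE to 0.66 (0.263; 4.97e-06 to 0.629). PLK4 went to 0.42, KIF11 to 0.25 and CDK1 to 0.006, the last from 0.46. MAD2L1 and HMMR turned from 0.23 and 0.33 to -0.12 and -0.15, and CCNB1 went from -0.12 to -0.26. The median over the members became 0.00082 and 16 of 32 were above 0. With the length trend removed too, CENPF, MKI67 and TOP2A were called (4.62% of all genes).

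**Figure D4:**
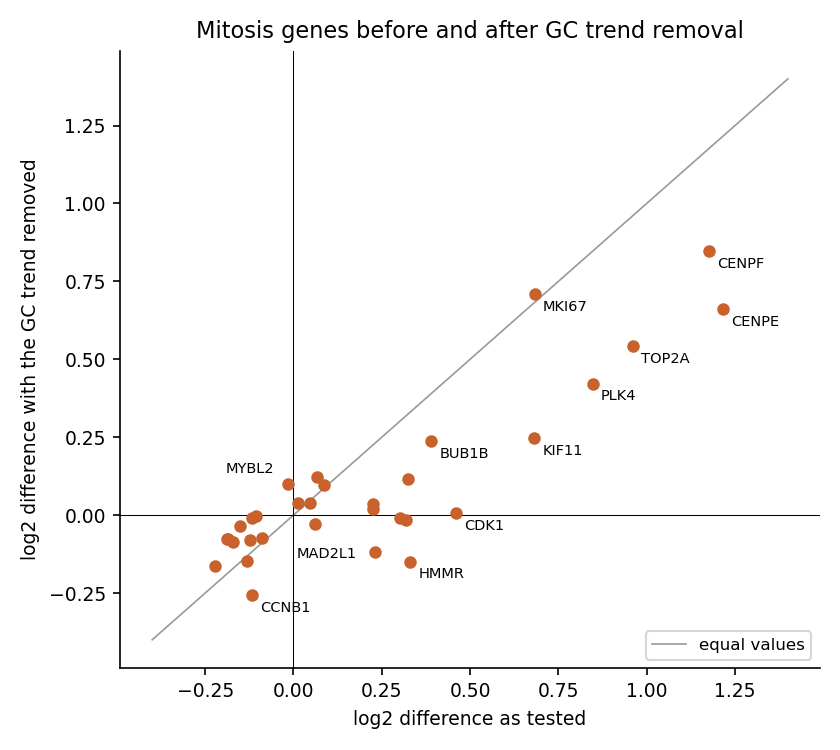
Log2 difference of each tested mitosis gene as tested (horizontal) and with the GC trend of each library removed (vertical); the grey line marks equal values. CENPF, CENPE, TOP2A, PLK4, KIF11 and CDK1 lie below the line, MKI67 lies close to it, and CDK1 is close to 0 on the vertical axis.

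Other genes of the cell cycle were read from 9 lists of textbook members, with 162 of 165 genes tested. Of these 162, edgeR called 0 (0.366% of all genes), DESeq2 17 (4.61%) and limma voom 0 (0.38%). Counts at an unadjusted p under 0.05 are to be read against 11.1% of all genes higher and 4.49% lower, and with the GC trend removed against 10.6% and 9.93%. Among 19 condensin and cohesin genes, which shape and hold together the chromosomes, 9 were higher and 0 lower at that threshold, with a median log2 difference of 0.45, and 7 were higher and 0 lower with the GC trend removed (median 0.15). The cohesin loader NIPBL had 32.2, 32.8 and 38.7 CPM and then 116, 68.8 and 50.3 CPM (log2 difference 1.18, edgeR adjusted p = 0.0887), and PDS5A a log2 difference of 1.03 (edgeR adjusted p = 0.133). Of 35 other kinetochore and checkpoint genes 7 were higher, led by the kinetochore scaffold KNL1 (log2 1.22, edgeR adjusted p = 0.133) and KNTC1 (1.01, 0.152). With the GC trend removed, 4 of these 35 were higher and 6 lower, 17 were above 0 and the median was -0.01, against 0.16 as tested. Of 10 chromosomal passenger and cytokinesis genes 5 were higher, led by the kinesin KIF14 (1.28, edgeR adjusted p = 0.14) and ECT2, an activator of RhoA (0.92, 0.181), and 5 were higher with the GC trend removed. Of 21 other spindle and centrosome genes 7 were higher and 1 lower, led by ASPM, a spindle pole protein (1.38, edgeR adjusted p = 0.124) and the centriole gene SASS6 (1.25, 0.14), and 8 were higher and 1 lower with the GC trend removed. Median transcript GC content was 40.8%, 41.5%, 42.6% and 42.1% in these 4 lists.

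The other 5 lists had medians from -0.17 to 0.05. Of 17 subunits and regulators of the anaphase-promoting complex 1 was higher and 0 lower at an unadjusted p under 0.05, with CDC27 at a log2 difference of 0.57 and ANAPC10 at -0.54 (edgeR adjusted p = 0.26 and 0.39); with the GC trend removed 0 were higher and 2 lower. Of 12 mitotic entry regulators 1 was higher and 0 lower, with ARPP19 at 0.48 and BORA at 0.44 (edgeR adjusted p = 0.317 and 0.473). The median was -0.08, and 9 of these 12 differences were below 0, against 49% of all genes. The groups did not overlap for 4 of them, each lower (CKS1B, CDC25A, CKS2 and CDKN3, named after their values were seen), against 9.12% of all genes, and with the GC trend removed 0 were higher and 4 lower. Of 17 DREAM and E2F genes 3 were higher and 2 lower, with RBL1 at 0.67 and RB1 at 0.65 (edgeR adjusted p = 0.291 and 0.224), and with the GC trend removed 0 were higher and 4 lower. The 2 lower were E2F2 at -0.45 and E2F1 at -0.42 (edgeR adjusted p = 0.2455 and 0.214), named after their values were seen. The groups did not overlap for 3 of the 17, each lower, against 9.12% of all genes. Among the S phase genes described next, they did not overlap for 6, each lower. Of 19 S phase genes 0 were higher and 3 lower, 17 of the 19 differences were below 0 (49% of all genes), and the replicative helicase genes MCM2 and MCM5 had log2 differences of -0.46 and -0.39 (edgeR adjusted p = 0.241 and 0.257). With the GC trend removed, all 19 S phase differences were below 0 (50.1% of all genes; median -0.23), with 0 called and 11 lower at an unadjusted p under 0.05 (9.93% of all genes). Among 12 CDK inhibitors and D cyclins, with the kinases CDK4 and CDK6, 1 was higher and 1 lower in either fit. CDK6 had 21.6, 17.7 and 28.2 CPM and then 73.4, 50.8 and 35.6 CPM. Its log2 difference was 1.24 (edgeR adjusted p = 0.0774), and that of the inhibitor gene CDKN1C -0.49 (edgeR adjusted p = 0.463). CDKN1C had only 1.34 to 2.97 CPM, and its edgeR unadjusted p was 0.13. The 1 gene counted as lower in the fit as tested was CDKN2D, named after its value was seen. Its log2 difference was -0.44 (edgeR unadjusted p = 0.0236, edgeR adjusted p = 0.244). With the GC trend removed, 7 of the 162 genes were called (3.12% of all genes), with KNL1, KNTC1, NIPBL, PDS5A, SMC3 and CDK6 higher and WEE1, the kinase that holds CDK1 inactive, lower. SMC3 and WEE1 are named here because their calls were seen.

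**Figure D5:**
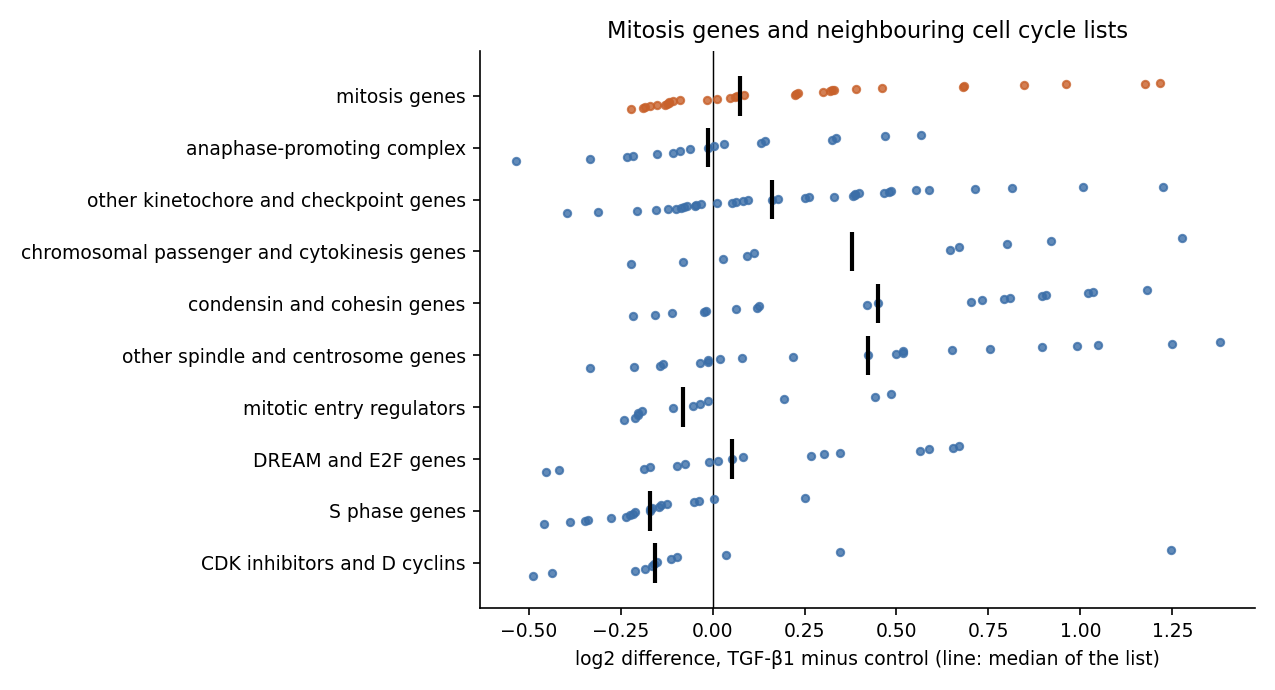
Log2 difference (TGF-β1 minus control) of each tested gene in the mitosis list (orange) and in 9 other cell cycle lists (blue), with the median of each list as a black line. Medians run from -0.17 (S phase genes) to 0.45 (condensin and cohesin genes), and 0.08 for the mitosis genes.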

How the data were processed

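RNA sequencing of 6 LX-2 samples was analysed, 3 control and 3 TGF-β1, grouped by their labels. Read counts per gene were deposited without normalization, per the file headers, and FPKM values were deposited by the authors beside them. The NEBNext Ultra RNA kit was used, per the labels' protocols, and it keeps no strand information. HISAT2, HTSeq 0.13.5 and GRCh38 appear in the submitters' processing notes; the release of the annotation was not given in the sources. Totals of 13866957 to 17694675 counts per library set the precision.

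The whole count table was tested with edgeR 4.0.16 in R 4.3.3 (robust quasi-likelihood F test, TMM, filterByExpr, which retained 14463 genes), with Benjamini-Hochberg adjustment over all of them and calls under 0.05. CPM use TMM-scaled library sizes (totals for cell type markers). GC content, positions and exon overlaps come from GENCODE release 29, which matched 26968 genes. The GC trend of each library was fitted by loess (span 0.5) and entered as an offset; 88 tested genes without a transcript kept no offset. The procedure was also run on counts simulated gene by gene without a GC trend. That run therefore cannot show how well a GC trend is removed.

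All 33 members are named, and of each other list the 2 largest differences. Members and lists were chosen with earlier results of these data known. Alternatives were other scaling factors, filters of none and of 1 CPM in 3 samples, DESeq2 1.42.0, limma 3.58.1 (voom, log2(FPKM + 1) and log2(FPKM + 0.1)), the replicate block, each sample left out, and removal of GC and length trends.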

Additional observations from a re-analysis of the deposited data

How the results depend on the processing

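Of the 32 tested mitosis genes 0 were called (0.366% of all genes, the share given in brackets below). The count was also 0 under DESeq2-type size factors, total counts, the stricter filter, limma voom and both FPKM scales (0.325% to 0.436%). It was 1 with upper quartile factors (0.767%), 6 with no filter (4.46%) and 4 with DESeq2 (4.61%). With the GC trend removed it was 1 (3.12%), and with GC and length removed 3 (4.62%). Without 1 sample it was 0 to 7 (0.0271% to 11.2%), and with the GC trend removed as well 0 to 5 (0.467% to 9.32%). The 5 were called without TGF-β1 replicate 3. Of these, 4 were higher and 1 was lower, CCNB1 (edgeR adjusted p = 0.0298). Of the other cell cycle genes 0 were called. Their count was 2 (upper quartile), 33 (no filter), 17 (DESeq2), 7 (GC removed) and 0 to 42 without 1 sample. These are to be read against the same shares. The median log2 difference of 0.08 was 0.00082 with GC removed, 0.032 with GC and length removed, 0.03 to 0.14 without 1 sample, and -0.0083 to 0.04 with GC removed and 1 sample left out. The difference in summed level was 399 CPM with total counts and 149 to 482 CPM without 1 sample. The cause of these shifts was not tested.

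With the replicate block, 4 members were called (CENPE, CENPF, MKI67 and TOP2A), as were 16 genes of the other lists, against 3.64% of all genes. The block with the GC trend removed left 1 call (CENPF), against 1.58% of all genes, and a median of 0.0094. Samples with the same number had correlations of 0.164, 0.0928 and -0.336 between their deviations from the group means. Control replicate 2, for example, had its highest correlation (0.42) with a sample of another number, TGF-β1 replicate 3. Once the GC trends were taken out, that value was 0.15. The same-number values were then -0.0078, 0.076 and -0.17. Deviations from a mean of 3 samples cannot show whether samples of the same number belong together, and this was not tested.

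Of the 32 genes, 16 kept their sign in all 25 alternatives, among them the 5 with the largest differences (CENPE, CENPF, TOP2A, PLK4 and MKI67). The others turned in at least 1. KIF20A was -0.020 with upper quartile factors. MYBL2 was 0.0048 with total counts, 0.00032 and 0.00027 on the FPKM scales, 0.10 with GC removed, 0.13 with GC and length removed and 0.10 with GC removed and the block. With GC removed, CCNB2 was -0.029, MAD2L1 -0.12, TTK -0.010, NDC80 -0.014 and HMMR -0.15. With GC and length removed, FOXM1 was 0.015, AURKB 0.019, MAD2L1 -0.14, CDC20 0.0017 and HMMR -0.12. With GC removed and the block, CCNB2 was -0.031, MAD2L1 -0.12, NDC80 -0.020 and HMMR -0.15. Leaving out 1 sample, with or without the GC trend, gave AURKB -0.18 to 0.035, BUB1 -0.0055 to 0.33, CCNA2 -0.011 to 0.33, CCNB2 -0.091 to 0.13, CDC25C -0.0078 to 0.16, CDK1 -0.035 to 0.64, FOXM1 -0.23 to 0.063, HMMR -0.25 to 0.52, KIF20A -0.12 to 0.10, MAD2L1 -0.21 to 0.38, MYBL2 -0.10 to 0.14, NDC80 -0.10 to 0.55, PTTG1 -0.21 to 0.0031, TPX2 -0.050 to 0.11 and TTK -0.21 to 0.44.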
